A study of Homo sapiens with 12 samples.

Results

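The genes described are those of 2 ring-shaped protein complexes that fold chromosomes, cohesin and condensin, and of CTCF, the DNA-binding protein at which cohesin-made loops end. They were chosen by symbol as SMC1A, SMC3, RAD21, STAG1 and STAG2 for cohesin (5 genes), SMC2, SMC4, NCAPH and NCAPD2 for condensin (4 genes), and CTCF, which makes 10 of the 38716 gene symbols in the tables. All 10 passed the filter on low counts in both kinds of library. The question addressed was how their mRNA and their translation differ between dividing and senescent fibroblasts, and whether condensin differs from cohesin in this.

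The cells were IMR90, a widely used line of human lung fibroblasts, and no transgene or drug is named in their labels. Cells either divided (Pro) or had been kept in culture until replicative exhaustion (Sen), and each state had 3 separately grown cultures. Every culture gave 1 lysate, harvested in buffer with cycloheximide, which holds ribosomes on mRNA, and from each lysate came 1 Ribo-seq library (ribosome-protected fragments, RPF) and 1 RNA-seq library of poly(A) RNA, 12 libraries in all. More than 1 isolate of the line is named for the cultures, but not by sample, and the RNA-seq files of Pro cells bear a DMSO-like tag about which the labels are silent. A difference between isolates or a solvent effect therefore cannot be told apart from the state.

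RNA-seq libraries held 7902427 to 14144455 reads in mRNA regions, and the members are well counted there. Ribo-seq libraries Pro 2, Pro 3, Sen 1 and Sen 3 held 583798 to 1718521 reads in coding sequence (CDS), but Pro 1 held 54421 and Sen 2 held 54708. In these shallow libraries a member had between 0 and 13 RPF reads, and 3 reads corresponded to 54.8 to 55.1 CPM (counts per 1000000 reads, here on library totals), so RPF results are also given without them. Sen 2 also differed in where its Ribo-seq reads lay, with 40.6% of its mRNA-region reads in the CDS against 77.5% to 95.8% in the other 5 Ribo-seq libraries, and the part of this in RPF and TE results was not tested. All 8 fibroblast markers examined were detected in both states. Of the markers of epithelial, endothelial and immune cells, SFTPC and CD3E had 0 reads in every library. Of the 8 with any CDS read only CD68 reached a mean of 1 CPM. The immune list, which is nearly all CD68, summed to 19 to 21 CPM in Pro and 31.1 to 34.3 CPM in Sen libraries, so it moved with the state, and its part in the results was not tested. The epithelial and endothelial lists each stayed at or under 1.71 CPM in every library. Among genes that check the states, CDKN1A mRNA, which encodes the cell cycle inhibitor p21, rose by 1.60 on the log2 scale, and LMNB1, encoding lamin B1, fell by 2.84.

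Cohesin is a ring made of the ATPases SMC1A and SMC3, closed by the cleavable subunit RAD21 and completed by either STAG1 or STAG2. It holds sister chromatids together from S phase until anaphase, and in interphase it extrudes chromatin loops whose ends are fixed where CTCF is bound. Condensin has the same architecture, with SMC2 and SMC4 as ATPases, and compacts chromosomes in mitosis. Its condensin I form carries NCAPH, NCAPD2 and NCAPG, and its condensin II form carries NCAPH2, NCAPD3 and NCAPG2. Cohesin thus acts in interphase and, until anaphase, in mitosis, while condensin is known above all for its part in mitosis.

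The promoters of 9 members were available from RefSeq as windows from 250 bases before to 50 bases after a start site, and RAD21 was not among them. They were searched on both strands for the cell cycle homology region (CHR, TTTGAA), for E2F sites (TTTCCCGC, TTTGGCGC or TTTCGCGC) and for the CCAAT box (CCAAT), and no 2 matches in the members overlapped. Both the CHR and E2F sites are known from promoters of cell cycle genes, which is why they are shown here. TTTGAA occurred in 15.2% of 35116 human promoter windows, an E2F site in 2.7% and CCAAT in 34.6%. A gene can have several windows, and counted by gene, with a match in any window, the shares were 18.2% for TTTGAA, 3.3% for an E2F site and 39.7% for CCAAT of 27305 genes. In condensin the CHR letters were found in 3 of 4 genes (SMC2, SMC4 and NCAPD2) and an E2F site in 0 of 4, whereas of 4 cohesin genes 1 (SMC3) had the CHR letters and 3 (SMC1A, STAG1 and STAG2) an E2F site. By window these were 3 of 6 with the CHR letters and 0 of 6 with an E2F site in condensin, and 1 of 7 and 3 of 7 in cohesin. Among the gene lists described further on, the CHR letters were in 4 of 4 genes of mitotic chromosome proteins with a window, in 2 of 8 that serve cohesin in S phase and mitosis and in 0 of 5 of boundary proteins. They were in 3 of 3 other condensin subunits with a window, of which 1 (NCAPD3) also had an E2F site. Among genes that load and release cohesin 1 of 6 had them, and 0 of 5 in each of SMC5/6 and the germline relatives. Each 30-base window below reads 5′ to 3′ along the gene, with the matched letters in capitals (as their reverse complement, TTCAAA or ATTGG, where the match lies on the other strand). Coordinates are those of GRCh37, where the RefSeq sequences (GRCh38.p14) matched exactly.

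SMC2, CHR, chr9:106856575-106856604, plus strand: ctcgcgccgaaaTTCAAAggaataaatagt
SMC4, CHR, chr3:160117351-160117380, plus strand: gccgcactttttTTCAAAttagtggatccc
NCAPD2, CHR, chr12:6603111-6603140, plus strand: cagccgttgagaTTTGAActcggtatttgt
NCAPH, CCAAT, chr2:97001380-97001409, plus strand: accccaagaagcCCAATcagacggggtcct
SMC3, CHR, chr10:112327290-112327319, plus strand: cagaattctagaTTCAAAagaaatccacca
CTCF, CHR, chr16:67596271-67596300, plus strand: atcgcgcccgctTTTGAAagttggcgcccg
SMC1A, E2F, chrX:53449605-53449634, minus strand: gcactgcggcgTTTCCCGCgcgggctacct
STAG1, E2F, chr3:136471385-136471414, minus strand: cagcggccacgTTTCCCGCcccgctggtgc
STAG2, E2F, chrX:123095846-123095875, plus strand: tgttggggggtTTTGGCGCcacttttgttt

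These windows describe letters alone. The CHR letters began 3 bases before the start site in SMC2, 75 bases before it in SMC4, 145 in NCAPD2, 146 in CTCF and 151 in SMC3. NCAPD2 was the member with the most CCAAT boxes, 4 in its window, while NCAPH had 1 and no CHR or E2F letters. By gene, CCAAT was found in 2 of 4 in condensin (NCAPH and NCAPD2) and in 2 of 4 in cohesin (STAG1 and STAG2). It thus did not set condensin apart from cohesin, and of the CCAAT windows only that of NCAPH is printed. Binding of any factor was not measured.

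At the mRNA level all 10 members fell with senescence (edgeR quasi-likelihood test, adjusted p under 0.15), where 37.0% of the 12787 genes tested fell. In each of the 10, every Sen library lay below every Pro library, which held for 34.2% of tested genes. The members' median log2 fold change was -0.92, against -0.01 over all genes tested. Cohesin genes fell by 0.43 to 1.12 on the log2 scale (median -0.71) and condensin genes by 0.99 to 2.22 (median -1.83). MKI67, the classical marker of cycling cells, fell by 2.30 over the same libraries, from 149 ± 2.15 to 30.5 ± 2.04 CPM, and its part in the members' fall was not tested. In bulk RNA, fewer cells of a kind (such as cells in mitosis) and less RNA per cell cannot be told apart.

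**Figure D1:**
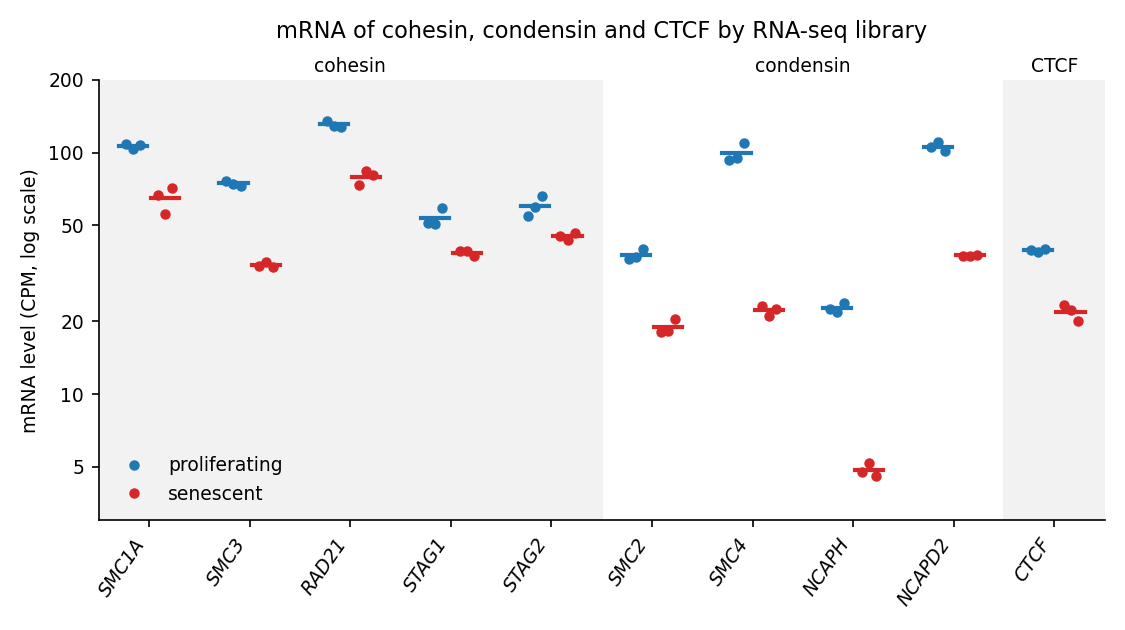
mRNA level (CPM, log axis) of the 10 members in the 3 Pro (blue) and 3 Sen (red) RNA-seq libraries, a point per library and a bar at the group mean. Sen points lie below Pro points for every gene, with a gap that is widest for NCAPH and SMC4 and narrowest for STAG1 and STAG2.

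Of the cohesin ATPases, SMC1A (chrX:53401070-53449677, minus strand, 25 exons in the GENCODE transcript used) had 109, 104 and 108 CPM in Pro 1, 2 and 3 and 66.9, 55.8 and 71.6 CPM in Sen 1, 2 and 3. The drop was 0.73 ± 0.08 (SE) on the log2 scale (edgeR adjusted p = 1.09e-07), with Sen 2 lowest of its group. SMC3 (chr10:112327442-112365806, plus strand, 29 exons) had 76.2, 74.4 and 72.7 CPM in Pro cells and 33.8, 35.1 and 33.5 CPM in Sen cells. Its replicates were close to one another in both states, and it fell by 1.12 ± 0.08 (edgeR adjusted p = 2.57e-11), the largest drop of the 5 cohesin genes. The 2 ATPases pair in a single ring, yet the ratio of SMC3 to SMC1A reads went from 0.695 ± 0.0213 (SD, n = 3) in Pro to 0.534 ± 0.084 in Sen cells, with the groups apart (0.672 to 0.715 against 0.468 to 0.629).

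RAD21, the subunit that separase cleaves at anaphase, had 135, 129 and 128 CPM in Pro and 73.7, 84.3 and 80.8 CPM in Sen cells. It fell by 0.71 ± 0.07 on the log2 scale (edgeR adjusted p = 1.93e-08), close to SMC1A. STAG1 (chr3:136055078-136471245, minus strand, 34 exons) and STAG2 (chrX:123094062-123556514, plus strand, 35 exons) occupy the same place in the ring in turn. STAG1 measured 51.2, 50.5 and 58.7 CPM in Pro and 39.1, 39.2 and 37.2 CPM in Sen cells. STAG2 had 54.9, 59.8 and 66.3 CPM in Pro and 45.1, 43.3 and 46.5 CPM in Sen cells. Theirs were the smallest drops among the members, 0.47 ± 0.08 for STAG1 (edgeR adjusted p = 3.41e-05) and 0.43 ± 0.08 for STAG2 (edgeR adjusted p = 0.000107). Their ratio overlapped between the states, at 0.933, 0.844 and 0.885 STAG1 reads per STAG2 read in Pro and 0.868, 0.904 and 0.800 in Sen cells, so no shift from one variant to the other was resolved.

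Among condensin genes, SMC4 (chr3:160117062-160152742, plus strand, 24 exons) went from 92.9, 94.8 and 110.0 CPM in Pro to 23.2, 21.1 and 22.6 CPM in Sen cells. This is a drop of 2.16 ± 0.09 on the log2 scale (edgeR adjusted p = 4.94e-15), or 4.47-fold. Its partner SMC2 (chr9:106856541-106903700, plus strand, 25 exons) had 36.2, 37.1 and 40.0 CPM in Pro and 18.1, 18.3 and 20.5 CPM in Sen cells. SMC2 fell by 0.99 ± 0.09 (edgeR adjusted p = 4.41e-09), less than SMC4, and reads of SMC4 per read of SMC2 dropped from 2.63 ± 0.11 to 1.18 ± 0.0937 (n = 3 each), with 2.56 to 2.75 in Pro and 1.10 to 1.28 in Sen libraries. Both proteins belong to condensin I and II alike.

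NCAPH (chr2:97001504-97042829, plus strand, 18 exons), which closes the condensin I ring, had 22.6, 21.8 and 23.9 CPM in Pro and 4.78, 5.20 and 4.57 CPM in Sen cells. Its drop of 2.22 ± 0.12 (edgeR adjusted p = 8.7e-13) was the largest of the 10. NCAPD2 (chr12:6602522-6641121, plus strand, 32 exons), a HEAT-repeat subunit of condensin I, had 106, 111 and 102 CPM in Pro and 37.3, 37.4 and 37.7 CPM in Sen cells. It fell by 1.50 ± 0.07 (edgeR adjusted p = 1.45e-13). Only 1.4% of genes tested had a lower log2 fold change than NCAPH and 1.5% a lower one than SMC4, against 23.8% for STAG2.

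CTCF (chr16:67596370-67673080, plus strand, 12 exons) had 39.5, 38.9 and 39.9 CPM in Pro and 23.3, 22.3 and 20 CPM in Sen cells. The fall of 0.85 ± 0.09 (edgeR adjusted p = 2.72e-08) lay within the range of the cohesin genes. Reads of CTCF per RAD21 read were 0.293 to 0.311 in Pro and 0.247 to 0.316 in Sen libraries, which overlap.

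Condensin and cohesin were then set against each other within each library, which removes depth and scaling. Reads of the 4 condensin genes per read of the 5 cohesin genes came to 0.604, 0.633 and 0.635 in Pro and 0.322, 0.318 and 0.317 in Sen RNA-seq libraries. The means were 0.624 ± 0.0176 and 0.319 ± 0.0028 (SD, n = 3), a log2 difference of -0.97. In Ribo-seq the same ratio was 1.22, 0.733 and 0.908 in Pro and 0.369, 0.375 and 0.379 in Sen libraries, and the highest value belonged to the shallow library Pro 1. The groups did not overlap in either assay, with or without the shallow libraries. No test was made, since the genes had been listed with earlier results known. The separation was not complete gene by gene, because SMC3 of cohesin fell slightly more than SMC2 of condensin, and reads of SMC2 per SMC3 read overlapped between Pro (0.475 to 0.550) and Sen cells (0.521 to 0.614).

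**Figure D2:**
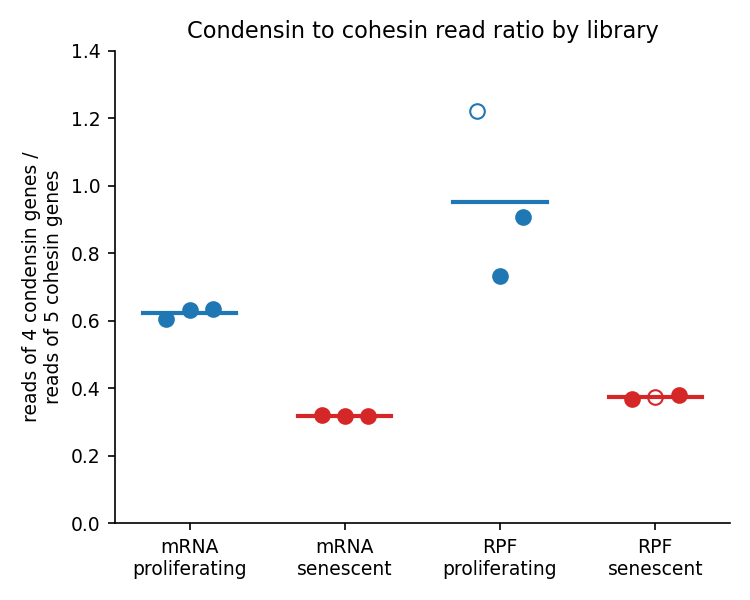
Reads of the 4 condensin genes divided by reads of the 5 cohesin genes in each library, for RNA-seq and Ribo-seq, with a bar at the group mean and open circles for the shallow Ribo-seq libraries. The Sen values, 0.317 to 0.379 over both assays, lie below all Pro values, 0.604 to 1.22.

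The size of the contrast depended on which condensin genes were counted. With all 8 condensin genes the mRNA ratio went from 1.11 ± 0.00876 to 0.777 ± 0.0232, a log2 difference of -0.51, and the groups were still apart. Over CDS reads alone, also tried after seeing the data, the log2 difference was -0.97 with 4 condensin genes and -0.68 with all 8. Of the 4 subunit genes outside the members, all fell at the mRNA level, where 37.0% of all genes tested fell, but to different degrees. NCAPG of condensin I fell by 1.41 ± 0.09 (45.4 to 49.1 CPM in Pro, 17.5 to 18.2 in Sen) and NCAPG2 of condensin II by 1.37 ± 0.09 (54.2 to 55.6 CPM in Pro, 19.9 to 23.1 in Sen). NCAPD3 fell by 0.53 ± 0.09 and NCAPH2 by 0.24 ± 0.08 (edgeR adjusted p = 0.0186) over all regions of the mRNA. With CDS reads alone the falls were larger, 0.68 for NCAPD3 (edgeR adjusted p = 1.06e-05) and 0.71 for NCAPH2 (adjusted p = 9.96e-05), while NCAPG (-1.44) and NCAPG2 (-1.35) hardly differed from their values over all regions. In NCAPH2 the 3′ UTR held 34.4% to 40.4% of reads in Pro and 54.1% to 57.0% in Sen libraries, and in NCAPD3 the 5′ UTR held 11.4% to 15.2% and 20.6% to 26.1%. The fall of NCAPH2 over all regions missed the threshold without lysates Pro 1 and Sen 2, at -0.14 (edgeR adjusted p = 0.163).

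Matching subunits of the 2 forms were then compared within each library. NCAPH reads per NCAPH2 read were 0.322, 0.362 and 0.413 in Pro and 0.0840, 0.0992 and 0.0911 in Sen RNA-seq libraries. NCAPD2 reads per NCAPD3 read were 2.75, 2.70 and 2.56 in Pro and 1.25, 1.51 and 1.31 in Sen libraries. As the reads of NCAPH2 and NCAPD3 shifted between regions, the ratios were also taken over CDS reads alone, a choice made after seeing the data. They were then 0.449, 0.529 and 0.644 in Pro and 0.178, 0.189 and 0.203 in Sen libraries for NCAPH to NCAPH2, and 2.93 to 3.06 and 1.62 to 1.88 for NCAPD2 to NCAPD3. Both ratios were lower in each Sen library than in each Pro library either way, but the log2 differences were smaller over the CDS, -1.50 against -1.99 for NCAPH to NCAPH2 and -0.80 against -0.98 for NCAPD2 to NCAPD3. The pair NCAPG and NCAPG2 did not separate, with ratios of 0.838 to 0.884 in Pro and 0.787 to 0.904 in Sen libraries over all regions.

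At the level of RPF, all 10 members fell at an adjusted p under 0.15 (edgeR), where 26.9% of the 7521 genes tested fell. Their median log2 fold change was -1.39, against 0.00 over all genes tested, with -0.93 for cohesin and -2.14 for condensin. The 6 RPF libraries were apart, each Sen below each Pro, for 6 of the 10 (15.7% of tested genes), namely SMC3, RAD21, SMC2, SMC4, NCAPH and NCAPD2. All 4 condensin genes were among these. Without the shallow lysates the 10 calls stood, with log2 fold changes from -0.50 for SMC1A to -2.82 for SMC4. DESeq2, in contrast, called 6 of the 10, losing SMC1A, STAG1, STAG2 and CTCF.

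SMC4 had 219, 203 and 242 CPM of RPF in Pro 1, 2 and 3 and 28.6, 0 and 39.6 CPM in Sen 1, 2 and 3, where the 0 is from the shallow Sen 2. It fell by 2.87 ± 0.22 on the log2 scale (edgeR adjusted p = 3.22e-19), the largest drop of the members in this layer. SMC2 had 50.5, 83.5 and 104 CPM in Pro and 28.6, 17.1 and 28.3 CPM in Sen libraries. It fell by 1.74 ± 0.24 (edgeR adjusted p = 6.61e-09), less than SMC4 as in mRNA.

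NCAPD2 RPF were steady in Pro libraries, at 152, 143 and 156 CPM, and reached 36.4, 51.2 and 58.5 CPM in Sen libraries. The fall was 1.79 ± 0.21 (edgeR adjusted p = 3.29e-11). NCAPH had 50.5, 36.0 and 42.2 CPM in Pro and 6.50, 34.1 and 5.66 CPM in Sen libraries, where 34.1 CPM in Sen 2 stands for 2 reads. Its fall of 2.48 ± 0.39 (edgeR adjusted p = 2.65e-07) had the largest SE of the 10.

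In cohesin, SMC3 stood out at the RPF level, with 101, 148 and 138 CPM in Pro and 36.4, 68.2 and 34.0 CPM in Sen libraries. It fell by 1.92 ± 0.21 (edgeR adjusted p = 6.92e-12), more than SMC2 or NCAPD2. RAD21 went from 135, 199 and 172 CPM to 83.2, 102 and 94.3 CPM, a fall of 1.04 ± 0.18 (edgeR adjusted p = 2.17e-06). The groups of both genes were apart.

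For SMC1A the groups overlapped, at 101, 143 and 110 CPM in Pro and 76.7, 34.1 and 106 CPM in Sen libraries. Its fall of 0.53 ± 0.20 (edgeR adjusted p = 0.0229) was the smallest of the members in RPF and missed the threshold without Pro 2 (-0.39, edgeR adjusted p = 0.238) and without Sen 1 (-0.30, adjusted p = 0.459). STAG1 RPF were 33.7, 57.6 and 78.7 CPM in Pro and 30.6, 17.1 and 56.6 CPM in Sen libraries, a fall of 0.89 ± 0.25 (edgeR adjusted p = 0.00303) that was lost without Pro 3 (-0.53, adjusted p = 0.296) or Sen 1 (-0.40, adjusted p = 0.432). STAG2 had 16.8 CPM, or 1 read, in Pro 1, then 87.9 and 101 CPM in Pro 2 and 3, and 44.2, 51.2 and 58.5 CPM in Sen libraries. Its fall of 0.93 ± 0.22 (edgeR adjusted p = 0.000398) kept its call when any 1 library was left out.

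CTCF had the weakest RPF evidence, with 16.8, 38.9 and 41.7 CPM in Pro and 23.4, 34.1 and 28.3 CPM in Sen libraries. It fell by 0.66 ± 0.30 (edgeR adjusted p = 0.0684), which is past 0.15 but not 0.05. The call was lost without Pro 3 (-0.54, adjusted p = 0.371) and without Sen 1 (-0.44, adjusted p = 0.525).

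**Figure D3:**
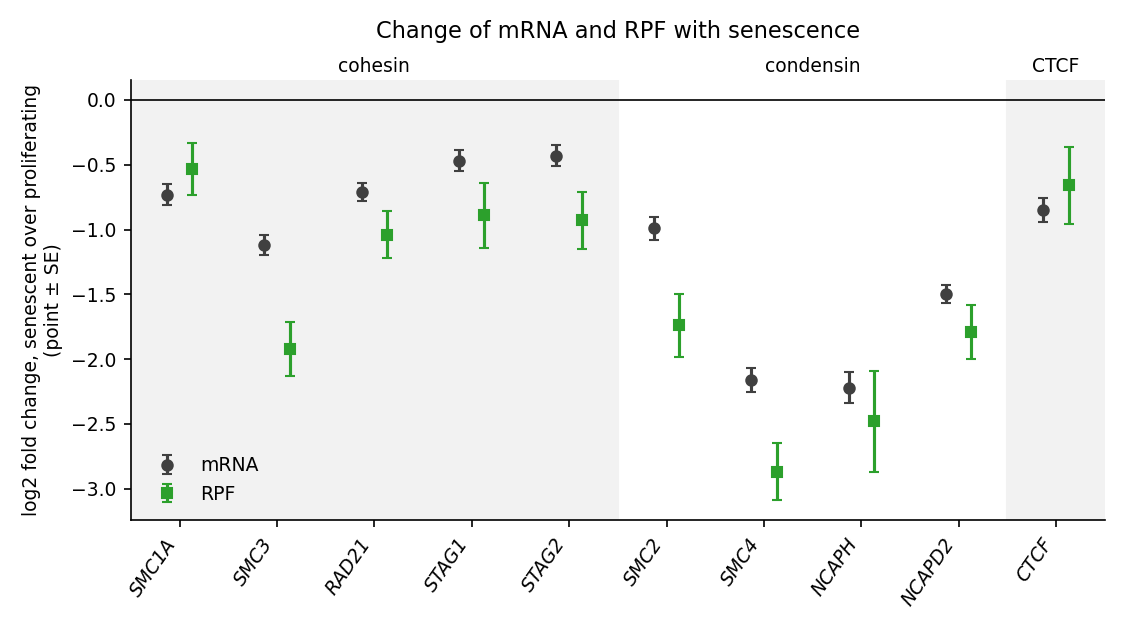
Log2 fold change of Sen over Pro cells for mRNA (circles) and RPF (squares), each with its SE, for the 5 cohesin genes, 4 condensin genes and CTCF. All values lie below 0. The RPF values of SMC3 (-1.92), SMC4 (-2.87) and SMC2 (-1.74) lie well under their mRNA values (-1.12, -2.16 and -0.99). Those of SMC1A and CTCF lie slightly above theirs.

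Levels of different genes were compared per length, as RPF per 1000 codons relative to 1000000 CDS reads, with the 3 libraries of a state pooled and an exact Poisson 95% interval that covers counting error only. Pooling weights libraries by depth, so Pro 3 (1718521 CDS reads) and Sen 1 (1672807) weigh most. In Pro cells RAD21 was highest at 286 (260 to 314), followed by SMC4 at 181 (166 to 196). SMC3 at 116, NCAPD2 at 110.0 and SMC1A at 97.3 came next with overlapping intervals. SMC2 at 81.9 overlapped with SMC1A and with STAG2 at 75.6. STAG1 at 57.4 (49.3 to 66.5), CTCF at 56.2 (45.8 to 68.4) and NCAPH at 55.5 (45.2 to 67.4) overlapped with one another and at their upper ends with STAG2 (66.2 to 85.9), and lay below the intervals of SMC2 and SMC1A.

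In Sen cells RAD21 stayed highest at 126 (109 to 146) and SMC1A was second at 61.8 (53.0 to 71.6), and STAG2 came next at 34.8 (28.4 to 42.2). SMC4 moved from second of the 10 to 21.8 (16.9 to 27.8), where it overlapped with SMC2 at 21.7, STAG1 at 26.7, NCAPD2 at 27.8, SMC3 at 27.9 and CTCF at 31.5. NCAPH was again lowest, at 8.76 (4.90 to 14.4) from 15 reads. The densities of SMC1A and SMC3 overlapped in Pro cells (86.5 to 109 and 104 to 129) but not in Sen cells (53.0 to 71.6 and 22.1 to 34.8). As means of 3 libraries the order was less sharp, with SMC3 at 109 ± 17 in Pro and 37.7 ± 19.4 in Sen cells, where Sen 2 gave 60.1 from 4 reads. By these means NCAPH was lowest in neither state. It was at 60.3 ± 12.8 in Pro (CTCF 45.8 ± 17.9) and 21.4 ± 24.2 in Sen cells (SMC4 16.1 ± 14.5).

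**Figure D4:**
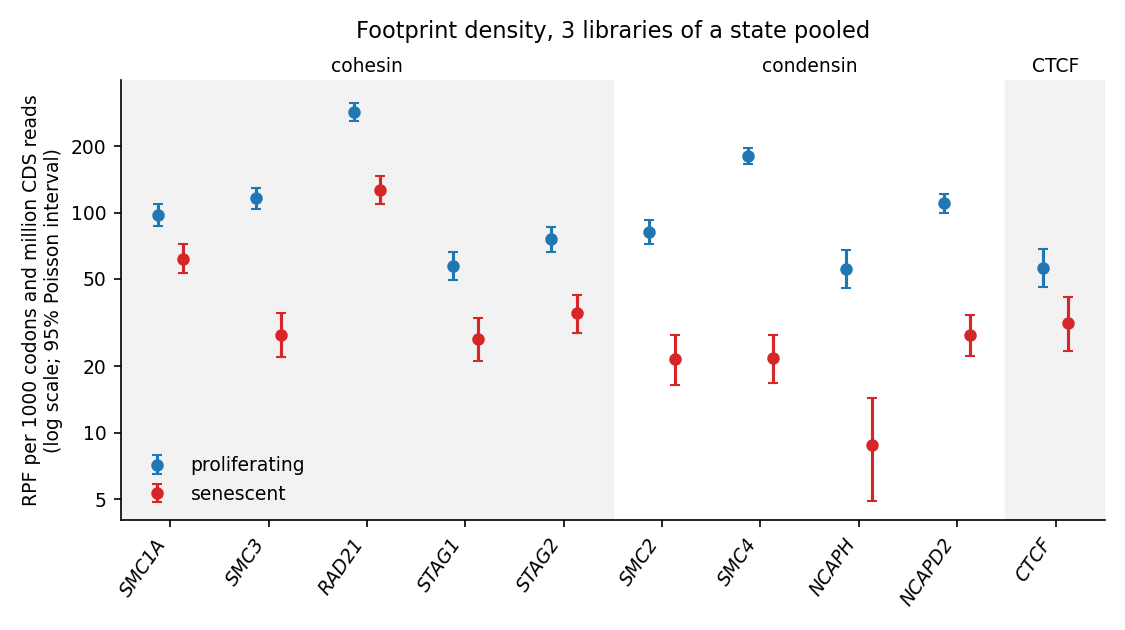
RPF per 1000 codons and 1000000 CDS reads (log axis) of each member with the 3 libraries of a state pooled, bars being 95% Poisson intervals of the read count. The intervals of Pro (blue) and Sen (red) are apart for all 10 genes, and SMC4 changes from 181 to 21.8. They do not cover the spread between cultures. By single library the states overlap for STAG1, STAG2 and CTCF through the shallow Pro 1, and for NCAPH through the shallow Sen 2.

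Translational efficiency (TE), the RPF level of a gene relative to its mRNA level, was tested as the interaction of library type and state. Of the 10 members 2 fell, SMC3 and SMC4, where 4.48% of 7473 genes tested fell. In SMC2 and SMC4 every Sen lysate lay below every Pro lysate, which was so for 8.72% of genes tested. SMC3 fell by 0.80 ± 0.24 on the log2 scale (edgeR adjusted p = 0.044). Per lysate its log2 TE was 0.52, 1 and 0.93 in Pro and 0.13, 1.13 and 0.06 in Sen cells, where 1.13 is the value of the shallow Sen 2, so that the groups overlap. Without the shallow lysates the fall was 0.87 (adjusted p = 0.0227).

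SMC4 had log2 TE values of 1.29, 1.10 and 1.14 in Pro and 0.32, -1.31 and 0.84 in Sen lysates. The -1.31 is of the shallow Sen 2, with 0 RPF reads of SMC4, and rests on the 0.5 added to each count. In the test SMC4 fell by 0.70 ± 0.25 (edgeR adjusted p = 0.109). SMC2 had 0.70, 1.18 and 1.38 in Pro and 0.67, 0.48 and 0.50 in Sen lysates, with a difference of -0.69 ± 0.29 that missed the threshold (edgeR adjusted p = 0.171). It passed without the shallow lysates (-0.70, adjusted p = 0.123). DESeq2 called neither SMC3 (adjusted p = 0.719) nor SMC4 (adjusted p = 0.881). Leaving out Pro 2, Pro 3, Sen 1 or Sen 3 ended both calls, with adjusted p from 0.205 to 0.452 for SMC3 and from 0.205 to 0.736 for SMC4. The SMC4 call also ended without Sen 2 (adjusted p = 0.155) and with only CDS reads as the mRNA level (adjusted p = 0.177).

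For the other 7 members the TE differences ran from -0.43 ± 0.24 for STAG2 to 0.18 ± 0.32 for CTCF, with adjusted p from 0.333 to 0.865 (edgeR). SMC1A, at 0.12 ± 0.21, was the other member with a value above 0. Their SEs ran from 0.20 to 0.49, and for NCAPH, with the largest, a difference as big as that of SMC3 lies within 2 SE of 0. The median over the 10 was -0.31, against -0.01 over all genes tested. Outside the members, TE also fell for the condensin gene NCAPG (-0.85 ± 0.29, edgeR adjusted p = 0.0811). Of genes described further on, it fell for PDS5A, WAPL, SGO2 (-1.45 ± 0.41, edgeR adjusted p = 0.0316) and NSMCE4A (-1.46 ± 0.47, adjusted p = 0.0624). The calls of NCAPG, SGO2 and NSMCE4A were lost under DESeq2 and without Pro 2, Sen 1 or Sen 3.

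Factors that load, release and modify cohesin were examined next. Of 7 such genes, 5 fell, 1 rose and 1 did not pass the test at the mRNA level (median log2 fold change -0.34), where 37.0% of all genes tested fell and 36.6% rose. NIPBL, which loads cohesin and drives loop extrusion, fell by 0.63 ± 0.09 (45.5, 49.1 and 53.1 CPM in Pro, 33.4, 30 and 32.3 CPM in Sen). Its partner MAU2 did not follow, with 46.1, 44.7 and 45 CPM in Pro and 53.2, 46.7 and 55.4 CPM in Sen cells. MAU2 rose by 0.19 ± 0.08 (edgeR adjusted p = 0.0475), a call lost on library totals (0.09, adjusted p = 0.374) and without Sen 3.

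WAPL, which opens the ring to release cohesin, fell by 0.21 ± 0.07 in mRNA (58.1 to 60.2 CPM in Pro, 50.7 to 52.7 CPM in Sen), and its cofactors PDS5A and PDS5B by 0.34 ± 0.07 and 0.72 ± 0.11. The acetyltransferase ESCO1 fell by 0.40 ± 0.12, while the deacetylase HDAC8 was at 0.06 ± 0.10 (edgeR adjusted p = 0.64). In RPF 5 of the 7 could be tested, of which 4 fell, where 26.9% of all genes tested fell. The falls were 1.27 ± 0.27 for NIPBL, 1.15 ± 0.21 for PDS5A, 0.97 ± 0.25 for WAPL and 0.97 ± 0.27 for PDS5B. Under DESeq2 PDS5A alone of these kept its call. In RPF 27.5% of genes tested rose, among them MAU2 by 0.56 ± 0.28 (edgeR adjusted p = 0.0991), with 0 reads in Sen 2, and the call was lost in 6 of 12 alternatives. TE fell for PDS5A (-0.81 ± 0.23, edgeR adjusted p = 0.0273) and WAPL (-0.79 ± 0.26, adjusted p = 0.0711), where 4.48% of all genes tested fell. Both calls were lost under DESeq2 and without Pro 2, Pro 3 or Sen 1.

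Genes that serve cohesin in S phase and mitosis fell, 9 of 9 at the mRNA level, where 37.0% of all genes tested fell. Their median log2 fold change of -1.69 was nearer to condensin than to the cohesin ring. CDCA5 (sororin), which guards cohesion against WAPL, fell by 0.98 ± 0.10, and ESCO2, the acetyltransferase of S phase, by 1.69 ± 0.18. The separase gene ESPL1 fell by 1.17 ± 0.14 and its inhibitor PTTG1 (securin) by 1.81 ± 0.12. The shugoshins SGO1 and SGO2, which protect centromeric cohesin, fell by 1.69 ± 0.18 and 1.07 ± 0.13. The kinases PLK1, BUB1 and AURKB had log2 fold changes of -2.04, -2.13 and -2.31. In RPF all 6 that could be tested fell, beside 26.9% of all genes tested.

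Other chromosome proteins of mitosis also fell, 5 of 5 in mRNA and RPF, beside 37.0% and 26.9% of all genes tested. Their mRNA log2 fold changes ran from -0.50 to -2.30. TOP2A, the topoisomerase of mitotic chromosomes, went from 129, 141 and 147 CPM of mRNA to 31.6, 34.0 and 38.3 CPM, and the kinesin KIF4A, a partner of condensin, from 21.4 to 24.4 CPM down to 5.32 to 6.21 CPM. Their falls of 2.01 ± 0.08 and 1.97 ± 0.12 lie near that of SMC4. TOP2B, which is also present in cells that do not divide, fell by 1.06 ± 0.08, near SMC3 and SMC2, and MCPH1, which restrains condensin II, by 0.50 ± 0.12. The RPF call of MCPH1 was kept in 8 of 12 alternatives and lost under DESeq2, with the replicate block, without Pro 3 and without Sen 1.

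The third SMC complex, SMC5/6, which acts in DNA repair, had 4 of 7 genes that fell and 1 that rose in mRNA, beside 37.0% and 36.6% of all genes tested. SMC6 fell by 1.26 ± 0.11 (28.9, 29.6 and 30.2 CPM in Pro, 14.1, 12.1 and 11.1 CPM in Sen), NSMCE4A by 0.87 ± 0.11 and SMC5 by 0.50 ± 0.11. The calls of NSMCE2 (-0.22, edgeR adjusted p = 0.149) and NSMCE3 (0.17, adjusted p = 0.126) were each lost in 8 of 14 alternatives, and without these 3 of 7 fell, close to the share over all genes. NSMCE1 was at 0.03 and EID3 at 0.42, neither past the threshold. In RPF 3 of 6 tested fell, beside 26.9% of all genes tested.

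Among other proteins of loop ends and boundaries, 2 of 5 fell and 3 rose in mRNA, where over all genes tested 37.0% fell and 36.6% rose. MAZ fell by 0.75 ± 0.08 (145 to 172 CPM in Pro, 90.4 to 101 CPM in Sen) and ADNP by 0.68 ± 0.07, both near CTCF. ZNF143 rose by 0.29 ± 0.11, LDB1 by 0.24 ± 0.08 and YY1 by 0.23 ± 0.09, but on library totals ZNF143 (0.18, edgeR adjusted p = 0.16) and YY1 (0.12, adjusted p = 0.232) missed the threshold, as did ZNF143 without Pro 2 and YY1 without Sen 3. In RPF, YY1 (0.48 ± 0.21) and LDB1 (0.62 ± 0.26) rose and ADNP (-0.82 ± 0.23) fell, and all 3 calls were lost under DESeq2 and without Sen 1. The germline relatives SMC1B, RAD21L1 and CTCFL were at under 1 CPM in every RNA-seq library, STAG3 at 2.01 to 2.68 CPM and REC8 at 2.13 to 3.78 CPM.

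**Figure D5:**
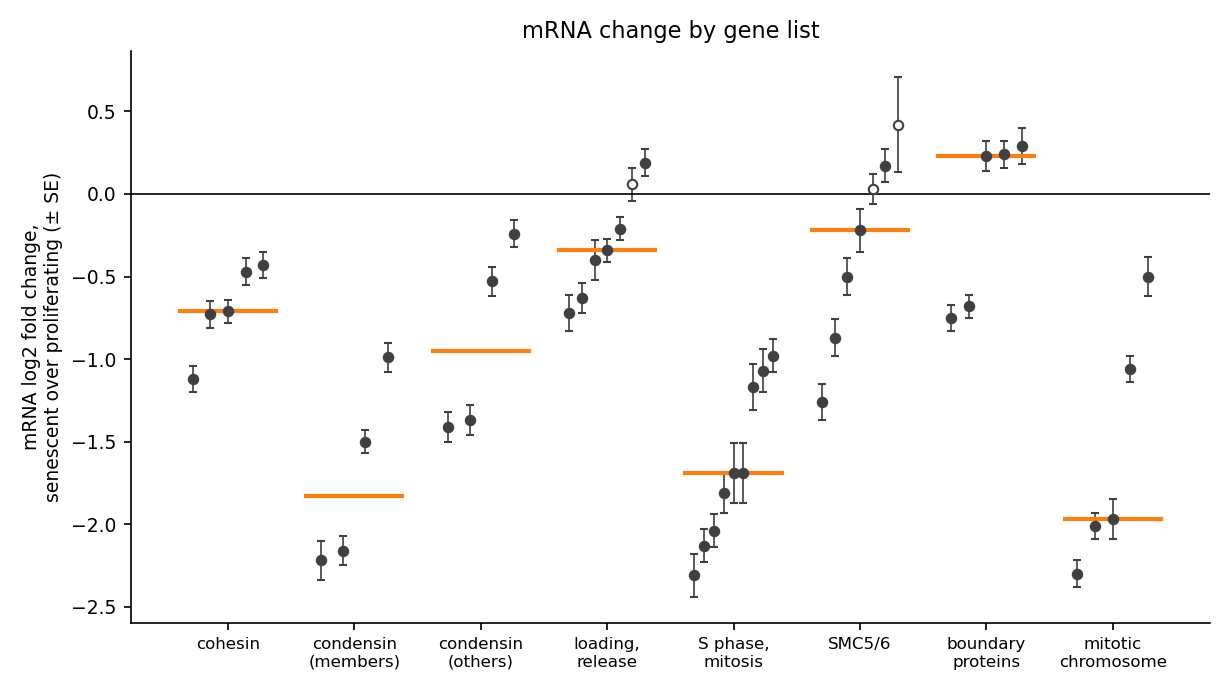
mRNA log2 fold change (± SE) of each tested gene by list, filled where adjusted p was under 0.15 and open where not, with an orange bar at the list median. Medians are -0.71 for cohesin, -1.83 for the condensin members, -1.69 for S phase and mitosis genes of cohesin and 0.23 for other boundary proteins.

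Reads of the members fell mostly in the CDS, with mean shares close between the states, the widest gap being 80.7% in Pro against 77.4% in Sen cells for SMC2. In RNA-seq the CDS held 65.9% (CTCF, Sen) to 97.2% (SMC3, Pro) of a member's mRNA reads on average. SMC3 had 0.2% ± 0.2 of its reads in the 3′ UTR in Pro and 0.6% ± 0.3 in Sen cells (SD, n = 3), although non-coding bases make up 33.9% of its GENCODE transcript. Other members had such a mismatch too. Non-coding bases make up 63.1% of the transcript of NCAPH and 61.9% of that of SMC1A. UTRs held 16.3% and 29.8% of their reads (mean of the states). The annotation behind the tables is not given in the sources used here, so mRNA levels over all regions are not comparable between genes, those of SMC3 least of all. Of the RPF reads of the members that lay in mRNA regions, 1.20% in Pro and 1.82% in Sen cells were outside the CDS. CTCF had the highest 5′ UTR share, 8 of its RPF reads or 4.95%, which is too few to compare between states.

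Several members share their locus with genes on the other strand, such as IFT80 and TRIM59 at SMC4, RIBC1 at SMC1A, PCCB at STAG1, UTP23 at RAD21 and MRPL51 at NCAPD2. How reads were assigned by strand is not given in the sources used here, and reads of overlapping exons cannot be told apart.

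The genes whose mRNA pattern over the 6 RNA-seq libraries was most like that of a member were sought by Euclidean distance between centred log2 CPM, among the 9419 genes whose mean reached 10 CPM. For SMC2 they were HNRNPU and TRRAP (distance 0.103 each) and KCNH2 (0.107). For SMC3 they were MTHFD2 (0.069), PGD (0.071) and SNRPA (0.101), and for CTCF they were ACTL6A (0.099), GOLM1 (0.101) and CSDC2 (0.103). No other member was among them, and 6 libraries in 2 states leave many genes close to any one.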

How the data were processed

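For each gene symbol, the authors deposited reads assigned to the 5′ UTR, CDS and 3′ UTR of 12 libraries, 1 file per library. These deposited values are expected counts, without scaling: some are fractions of a read, and sums over regions were rounded for testing. Submitters' processing notes name cutadapt 1.18, Bowtie 1.0.1, SAMtools 1.8 and DESeq2 1.22.2. The build and annotation of the tables are not given in the sources used here. Groups came from sample titles. Members and gene lists were chosen with earlier results of these data known.

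The mRNA level summed all 3 regions in RNA-seq, and RPF was CDS reads in Ribo-seq. Genes kept by filterByExpr were tested with edgeR 4.0.16 (quasi-likelihood, two-sided, TMM factors within each library type, R 4.3.3), with Benjamini-Hochberg adjustment over all genes tested and a threshold of 0.15, since the study set its false discovery rate at 15%. TE used all 12 libraries with lysate as a block. Expected counts replaced the plain counts for which the tests were planned. CPM are scaled by TMM. TE per lysate added 0.5 to each count. Errors are SD over 3 replicates, or SE of a fold change. Named genes were the members, all genes of the lists given, check genes and the 3 most alike genes of SMC2, SMC3 and CTCF. Gene positions are from GENCODE 44 lifted to GRCh37. Alternatives were DESeq2 1.42.0, other scaling, filters and thresholds, single and paired omissions, the replicate block, and CDS reads of RNA-seq. The fit was also run on simulated counts with a fixed spread and no lysate effect, which checks the code and not the calls made here.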

Additional observations from a re-analysis of the deposited data

How the results depend on the processing

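All 10 members kept their mRNA fall under the 14 other settings tried and the stricter adjusted p of 0.05, with log2 fold changes of -0.84 to -0.61 for SMC1A and -2.27 to -2.08 for SMC4 at the extremes of the SMC subunits. On library totals the median fold change of all genes was -0.11 in mRNA and -0.14 in RPF. Of changed genes, 40.4% were then higher in mRNA (49.8% with TMM) and 39.5% in RPF (50.5% with TMM).

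For RPF, 4088 genes changed in the reported fit, 1164 under DESeq2, 605 with at least 10 counts in every library (a filter that kept 828 genes and no member), 2336 with a replicate block, and 2681 to 4555 when 1 library was left out. Fallen members numbered 6 under DESeq2 and 6 with the replicate block, and 7 to 10 with 1 library left out. For TE, 700 genes changed, 365 of them higher (52.1%), against 56 under DESeq2 (39.3% higher), 440 with no filter beyond 1 read, 230 where each library had 10 counts or more (37.0% higher), 1342 with no replicate block, 1197 without the shallow lysates, 231 at an adjusted p under 0.05, and 134 to 1154 with 1 lysate left out (38.1% higher without Pro 1, 41.6% without Pro 3 and 61.7% without Sen 2). TE of members fell for 0 under DESeq2, 1 with no filter, 4 with no replicate block, 1 with CDS reads of RNA-seq only, 1 at 0.05, and 0 to 4 with 1 lysate left out. Without Pro 1 they were SMC2, SMC3, SMC4 and STAG2. TE changed sign for SMC1A without Pro 3 (-0.06) and Sen 3 (-0.0048), and without Sen 1 for STAG1 (0.18), NCAPH (0.15) and NCAPD2 (0.12), none past the threshold. With 1 lysate left out, TE ranged from -0.06 to 0.30 for SMC1A, from -0.68 to 0.18 for STAG1, from -0.37 to 0.15 for NCAPH and from -0.49 to 0.12 for NCAPD2. The cause was not tested.

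The log2 change of the mRNA ratio of condensin to cohesin was -0.97 with 4 condensin genes and -0.51 with all 8. With CDS reads of RNA-seq only, chosen after seeing the data, it was -0.97 and -0.68, and the log2 changes of NCAPH to NCAPH2, NCAPD2 to NCAPD3 and NCAPG to NCAPG2 were -1.50, -0.80 and -0.08 (over all regions -1.99, -0.98 and -0.03). Deviations of Pro and Sen samples with the same replicate number correlated at -0.073 to 0.089. RPF and mRNA deviations within a lysate, where the pairing is known, correlated no better (-0.054 to 0.071). The correlations therefore cannot tell whether replicate numbers pair Pro with Sen samples, and the sample titles give only the numbers. Lysate was kept as a block for TE because both libraries came from 1 lysate. Under the replicate block the RPF calls of SMC1A (-0.34), STAG1 (-0.54), STAG2 (-0.58) and CTCF (-0.38) were lost.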
